A study of Homo sapiens with 21 samples.

Results

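Cells of 1 breast cancer line that had been made to overexpress SRSF2 were compared directly with cells of the same line made to overexpress SRSF7, with no control library in the comparison. The libraries are 6 of the 21 in the series: 3 with the genotype label SRSF2 OE, called SRSF2-OE here, and 3 with the genotype label SRSF7 OE, called SRSF7-OE. They were chosen by their labels alone, and all genes of the count table were examined. HCC1806, the line that all of them share, is an established human triple-negative breast cancer line, and the cells were grown as an attached layer (2D) and collected near confluence. The same table holds 3 libraries of a single plasmid control (1xCtrl) and 3 labelled SRSF3-OE, which are used below only to place levels. The promoter that drives each transgene, the number of clones behind each line and whether the 3 libraries of a line came from separate cultures are not given in the sources used here, so the p-values measure the spread between these libraries, which may be technical.

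SR proteins are RNA-binding factors with a domain rich in arginine and serine. They bind exonic enhancers in pre-mRNA, recruit spliceosome components and so favour the use of nearby splice sites, and several of them also act in transcription elongation, mRNA export, decay and translation. SRSF2 stays in the nucleus and is known for its action on exon inclusion and on release of paused RNA polymerase II. SRSF7 has a zinc knuckle beside its RNA recognition motif, shuttles to the cytoplasm, and is known for coupling 3′ end processing to mRNA export. Both genes contain conserved poison exons, through which SR proteins lower their own transcripts. Only gene-level counts are described here, and splicing was not analysed.

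The 6 libraries held between 171640946 and 303323552 counts. In 5 of the 6 the total exceeds the number of reads per library that the labels give, and how the counts were made from reads is not given in the sources used here. The limit of detection, set at 3 counts, was 0.00976 to 0.0175 CPM by library (CPM being a gene's counts scaled to a common library size with TMM factors). Libraries of 1 line were distinct beyond counting error (chi-square over its degrees of freedom, across genes, of 26.7 at the least and 87.2 at the most), and none was merged. In a principal component analysis of the 6 libraries the leading component, with 40.7% of the variance, separated the lines, and the next, with 17.9%, set SRSF2-OE replicate 3 apart from SRSF2-OE replicates 1 and 2. Mitochondrial genes took 11.8% to 13.6% of counts in SRSF2-OE and 9.23% to 10.1% in SRSF7-OE, without overlap. All 9 basal epithelial markers examined were tested and present, with summed levels of 6773 to 7268 CPM in SRSF2-OE and 6252 to 6706 in SRSF7-OE. The 8 of 11 luminal and hormone receptor markers that passed the filter summed to 1040.2 to 1144 CPM in SRSF2-OE and 1283 to 1399 in SRSF7-OE, and PGR, TFF1 and TFF3 did not pass it. Summed fibroblast markers reached at most 17.2 and 25.8 CPM, and endothelial markers 0.687 and 1.16 CPM. Summed leukocyte markers reached 23.6 and 26.5 CPM, nearly all of it CD68. Of the adipocyte list, FABP4 alone gave 36.7 CPM or more in SRSF2-OE. ADIPOQ and LEP did not pass the filter.

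The overexpressed genes themselves differed little between the lines. SRSF2 stood at 372, 405 and 406 CPM where the label is SRSF2-OE, against 341, 349 and 346 CPM in SRSF7-OE, and the groups did not overlap (log2 fold change 0.19 ± 0.0509, edgeR adjusted p = 0.0137, 95% interval 0.08 to 0.30, where ± is the SE here and below). The 1xCtrl libraries, at 438, 442 and 471 CPM, lay above both lines, so the level of SRSF2 goes against the label of the SRSF2-OE libraries. Every direction below is one between libraries so labelled. Whether reads of a transgene without its natural untranslated parts are counted in full is not given in the sources used here. The SRSF2 call was lost without SRSF2-OE replicate 2 or SRSF7-OE replicate 1, and SRSF2 shares 1106 exon bases with genes of the opposite strand and 99 with a microRNA gene of its own strand. SRSF7 stood at 399, 445 and 426 CPM in SRSF2-OE and at 444, 440.3 and 438 CPM in SRSF7-OE, against 360.2, 376 and 367 CPM in 1xCtrl. Its ranges overlapped between the lines, and the difference did not pass the test (log2 fold change -0.06 ± 0.0523, edgeR adjusted p = 0.425, 95% interval -0.17 to 0.06), with the sign turned under upper-quartile scaling. Against 1xCtrl, SRSF7 was higher by 0.26 on the log2 scale in SRSF7-OE (edgeR adjusted p = 0.0032) and by 0.20 in SRSF2-OE (edgeR adjusted p = 0.00845). On the same scale SRSF2 was lower in both, at -0.19 in SRSF2-OE (edgeR adjusted p = 0.0138) and -0.38 in SRSF7-OE (edgeR adjusted p = 0.000522). The call of SRSF2 in SRSF2-OE was lost in 5 of 13 alternatives: RLE and upper-quartile scaling, a fit of only these groups, and without 1xCtrl replicate 3 or SRSF2-OE replicate 1 (edgeR adjusted p up to 0.409). That of SRSF7 was lost in 1 alternative for each line. SRSF3, the third factor of the series, stood at 459.7, 452 and 454 CPM in SRSF2-OE and 396, 411 and 400.2 CPM in SRSF7-OE, without overlap (log2 fold change 0.18 ± 0.0454, edgeR adjusted p = 0.0109), a call lost without SRSF7-OE replicate 1. MYC, a transcription factor that the series sets beside the splicing factors, was the reverse, at 145, 143 and 140.4 CPM in SRSF2-OE and 162, 157 and 171 CPM in SRSF7-OE (log2 fold change -0.19 ± 0.0480, edgeR adjusted p = 0.00968), a call lost under upper-quartile scaling and in the fit of all 12 libraries. In GENCODE release 29 (GRCh38) these genes are SRSF2 (chromosome 17, bases 76734115 to 76737374, ENSG00000161547.16), SRSF7 (chromosome 2, bases 38743599 to 38751494, ENSG00000115875.19), SRSF3 (chromosome 6, bases 36594353 to 36605600, ENSG00000112081.17) and MYC (chromosome 8, bases 127735434 to 127741434, ENSG00000136997.19).

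**Figure D1:**
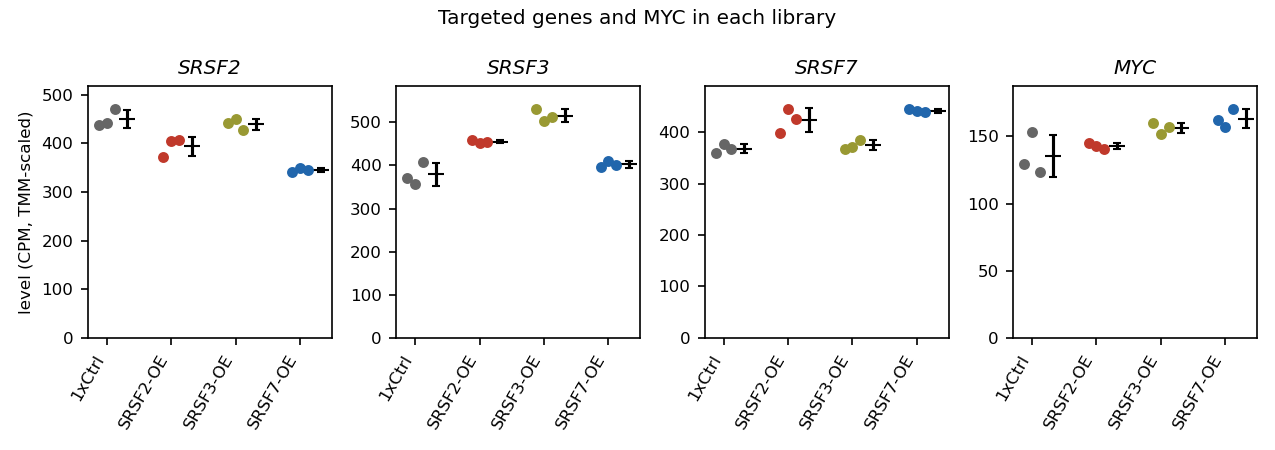
Levels of SRSF2, SRSF3, SRSF7 and MYC in CPM (vertical axis, from 0) in each of the 12 libraries of the count table, by group on the horizontal axis; points are libraries, and the bar beside them is the mean ± SD of 3. SRSF2 is highest in 1xCtrl, and the SRSF7 levels of SRSF2-OE and SRSF7-OE overlap.

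The lines differed in many genes and mostly by small amounts. Of 23148 genes tested, 8022 (34.7%) differed between the lines at an adjusted p under 0.05 by edgeR's quasi-likelihood test with Benjamini-Hochberg adjustment, with a median absolute log2 fold change of 0.43. Genes higher in SRSF2-OE numbered 3183 (13.8%) and genes lower numbered 4839 (20.9%), so 39.7% of the calls were higher. This split depends on the scaling: upper-quartile scaling moved the median of all genes from -0.05 to 0.07 on the log2 scale and gave 4997 higher and 3131 lower, or 61.5% higher. At 2-fold or more apart, 1047 genes (4.52%) were called, 477 higher and 570 lower in SRSF2-OE, and at 4-fold or more 66 higher and 73 lower. CPM did not overlap between the lines for 11167 genes (48.2%), among them 7938 of the 8022 called. The fit left 4 residual degrees of freedom. Small differences on the log2 scale are therefore read here against the 34.7% of genes that pass, and against the shift that the scaling alone can make.

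**Figure D2:**
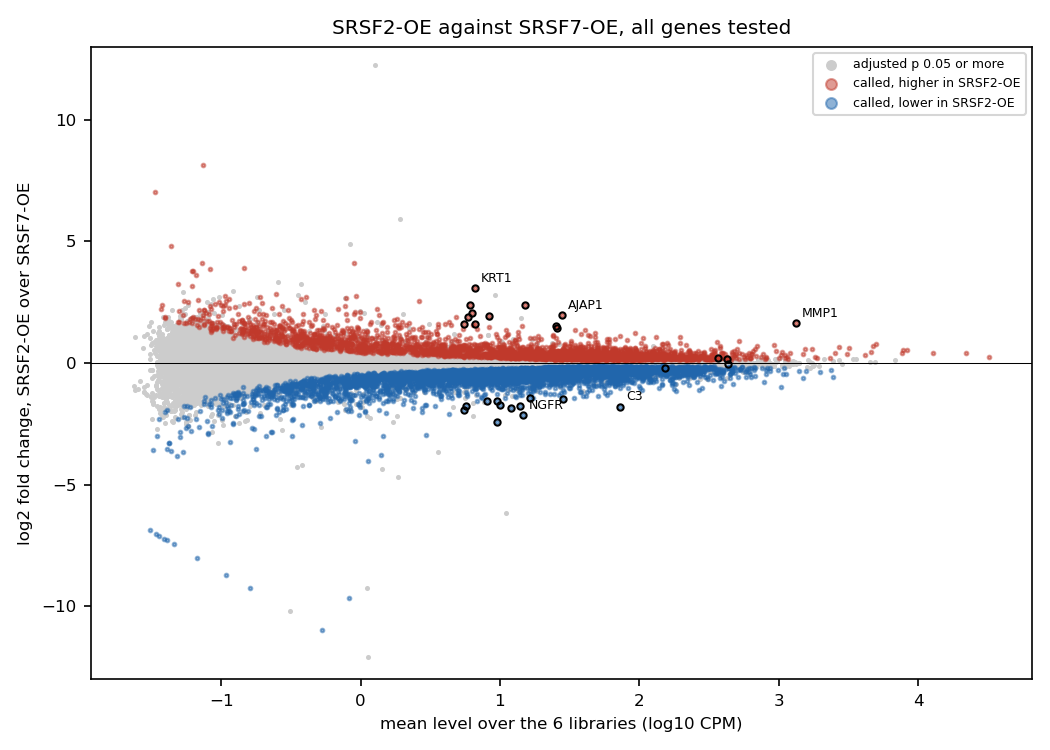
Log2 fold change of SRSF2-OE over SRSF7-OE (vertical axis) against the mean level over the 6 libraries (log10 CPM, horizontal axis) for the 23148 genes tested, with the 3183 called higher, the 4839 called lower and the other genes in different colours; rings mark the 24 leading genes and the targeted genes, 5 of them named. Most called genes lie close to 0, and KRT1, AJAP1 and MMP1 lie above them.

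Among genes with a mean of at least 5 CPM, no overlap between the lines and no exon shared on their strand, the 12 with the highest log2 fold change were KRT1, SPRR1B, SPRR3, LRRC38, AJAP1, IVL, MYH15, MMP1, SERPINB3, PHACTR3, CCN2 and FABP4. KRT1, a keratin of the suprabasal epidermis, stood at 12.3, 11.6 and 11.4 CPM in SRSF2-OE and 1.22, 1.56 and 1.44 CPM in SRSF7-OE (log2 fold change 3.07 ± 0.112, edgeR adjusted p = 2.11e-07). SPRR1B, a small proline-rich protein of the cornified envelope, stood at 26.0, 22.5 and 28.04 CPM in SRSF2-OE and 5.18, 4.11 and 5.23 CPM in SRSF7-OE (log2 fold change 2.40 ± 0.117, edgeR adjusted p = 2.46e-06). Its relative SPRR3 stood at 10.1, 9.76 and 10.8 CPM in SRSF2-OE and 1.83, 2.49 and 1.55 CPM in SRSF7-OE (log2 fold change 2.39 ± 0.165, edgeR adjusted p = 1.51e-05). IVL encodes involucrin, the scaffold of the same envelope, and stood at 12.3, 13.7 and 14.04 CPM in SRSF2-OE and 3.39, 3.60 and 3.42 CPM in SRSF7-OE (log2 fold change 1.94 ± 0.0866, edgeR adjusted p = 3.79e-07). The rule required that the lines not overlap, so the separation of these 4 genes was set by the choice. SERPINB3, a serine protease inhibitor of squamous epithelia, had 7.73, 8.25 and 8.84 CPM in SRSF2-OE and 2.88, 3.03 and 2.26 CPM in SRSF7-OE (log2 fold change 1.61). Reads shared with its near copy SERPINB4 make the division between them uncertain, and the same holds among the SPRR genes.

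MMP1, the interstitial collagenase, stood at 1852, 2113 and 2019.7 CPM in SRSF2-OE and 641, 683 and 613 CPM in SRSF7-OE (log2 fold change 1.63 ± 0.0663, edgeR adjusted p = 2.20e-07). AJAP1, a membrane protein of adherens junctions, stood at 40.7, 47.7 and 43.6 CPM in SRSF2-OE and 11.3, 11.1 and 11.6 CPM in SRSF7-OE (log2 fold change 1.96). LRRC38, an accessory subunit of BK potassium channels, stood at 8.94, 10.9 and 10.6 CPM in SRSF2-OE and 2.69, 2.27 and 2.41 CPM in SRSF7-OE (log2 fold change 2.05). The separation of these 3 genes was likewise set by the rule. CCN2, a matricellular protein, stood at 34.4, 38.3 and 39.4 CPM in SRSF2-OE and 13.3, 12.8 and 13.2 CPM in SRSF7-OE (log2 fold change 1.51). FABP4, a fatty acid carrier best known from adipocytes, stood at 38.0, 37.6 and 36.7 CPM in SRSF2-OE and 13.8, 14.1 and 13.8 CPM in SRSF7-OE (log2 fold change 1.43). MYH15, a myosin heavy chain, and PHACTR3, a regulator of protein phosphatase 1 that binds actin, differed by 1.91 (9.26 against 2.46 CPM) and 1.60 (9.92 against 3.27 CPM) on the log2 scale.

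By the same rule, the 12 genes lowest in SRSF2-OE, relative to SRSF7-OE, were FAM220A, NGFR, SEMA6B, LCN2, C3, PLAAT4, BST2, UPK3B, SUSD2, GDF15, SPTSSA and CDK18. C3, the central complement component, stood at 33.3, 32.6 and 32.05 CPM in SRSF2-OE and 127, 105 and 106 CPM in SRSF7-OE (log2 fold change -1.79 ± 0.0728, edgeR adjusted p = 4.45e-07). LCN2, a lipocalin that binds bacterial siderophores, stood at 5.29, 5.10 and 5.06 CPM in SRSF2-OE and 21.03, 16.5 and 18.9 CPM in SRSF7-OE (log2 fold change -1.87 ± 0.0937, edgeR adjusted p = 7.65e-07). BST2, or tetherin, an interferon-induced protein that holds virions at the cell surface, stood at 6.30, 6.62 and 6.14 CPM in SRSF2-OE and 23.2, 18.2 and 23.3 CPM in SRSF7-OE (log2 fold change -1.76 ± 0.0996, edgeR adjusted p = 1.63e-06). In all 3 the SRSF2-OE replicates were close together and the SRSF7-OE replicates spread more widely. NGFR, the low-affinity neurotrophin receptor p75 and a marker of basal cells, stood at 4.96, 5.57 and 5.61 CPM in SRSF2-OE and 24.4, 21.6 and 25.6 CPM in SRSF7-OE (log2 fold change -2.15 ± 0.0859, edgeR adjusted p = 2.20e-07), and shares 1126 exon bases with the opposite strand. SEMA6B, a membrane-bound semaphorin, stood at 2.48, 2.08 and 2.45 CPM in SRSF2-OE and 8.63, 6.72 and 10.97 CPM in SRSF7-OE (log2 fold change -1.91). GDF15, a divergent TGF-beta family cytokine that rises in cell stress, stood at 4.28, 3.70 and 4.32 CPM in SRSF2-OE and 12.4, 8.06 and 15.5 CPM in SRSF7-OE (log2 fold change -1.55 ± 0.248, edgeR adjusted p = 0.00519).

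For GDF15, UPK3B and SEMA6B the lowest SRSF7-OE library was replicate 2, and none of their calls was lost on leaving out a library. In all 3 genes 1xCtrl replicate 2 stood above the other control libraries. Replicate 2 was likewise the lowest SRSF7-OE library and the highest 1xCtrl library for NGFR, LCN2, C3, BST2, SUSD2 and CDK18. Among genes named further below the same was seen in KRT19, COL6A2, COL9A3, COL16A1, LRP5, WNT3A, HSPG2, FBLN2 and LAMB2. HLA-F, PSMB10, NOTCH3, TJP3, SEMA3F, DDIT4 and FADS2 showed it as well. These are examples and not all of the named genes that showed it. The genes of this pattern are therefore not read as independent of one another, and whether they moved together by library was not tested. UPK3B, a uroplakin, stood at 5.01, 3.95 and 5.07 CPM in SRSF2-OE and 15.8, 10.1 and 20.3 CPM in SRSF7-OE (log2 fold change -1.72 ± 0.287, edgeR adjusted p = 0.00837). SPTSSA, a small subunit of serine palmitoyltransferase, stood at 16.5, 14.3 and 14.9 CPM in SRSF2-OE and 30.0, 43.6 and 52.1 CPM in SRSF7-OE (log2 fold change -1.46 ± 0.226, edgeR adjusted p = 0.00787), with SRSF7-OE replicate 1 the lowest of its line. FAM220A had the lowest log2 fold change, -2.44 (SE 0.225), at 2.27, 4.05 and 2.61 CPM in SRSF2-OE and 15.5, 16.4 and 16.6 CPM in SRSF7-OE. Its control libraries stood at 1.30, 15.4 and 12.3 CPM, so 1 of them lay below all SRSF2-OE libraries. Its call was lost in the fit of all 12 libraries. PLAAT4, a retinoid-inducible phospholipase, SUSD2, a membrane protein with a sushi domain, and the kinase CDK18 differed by -1.77 (2.59 against 8.85 CPM), -1.58 (4.80 against 14.4 CPM) and -1.44 (8.83 against 24.0 CPM). The other 23 kept their calls on leaving out any library and in each alternative scaling, filter, tool and design that was run. Against a minimum of 2-fold 21 of the 24 passed, UPK3B, GDF15 and SPTSSA being the exceptions.

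Each line was also placed against 1xCtrl for these genes, in a fit of all 12 libraries in which 6109 of 24362 genes (25.1%) differed from 1xCtrl in SRSF2-OE and 4648 (19.1%) in SRSF7-OE. Both contrasts share the 1xCtrl libraries, so the values are given side by side and nothing is drawn from their likeness. The genes were also chosen by their values in these SRSF2-OE and SRSF7-OE libraries, so the counts below partly follow from the choice. Of the 12 genes highest in SRSF2-OE, SRSF2-OE was above 1xCtrl in 12, and SRSF7-OE was below it in 6 and did not pass the test in 6. KRT1, for example, lay 2.05 above 1xCtrl in SRSF2-OE (edgeR adjusted p = 1.44e-05) and at -1.01 in SRSF7-OE (edgeR adjusted p = 0.0025), on the log2 scale. MMP1 likewise lay on both sides, at 0.79 in SRSF2-OE and -0.84 in SRSF7-OE. LRRC38 lay at 2.11 and 0.06, the second value not passing the test (edgeR adjusted p = 0.77). Of the 12 genes lowest in SRSF2-OE, SRSF2-OE was below 1xCtrl in 8 and did not pass in 4, and SRSF7-OE was above it in 6 and did not pass in 6. C3 lay at -0.93 in SRSF2-OE and 0.86 in SRSF7-OE, and NGFR at -0.90 and 1.25, each passing the test in both lines. For CDK18 the values were -1.35 in SRSF2-OE and 0.09 in SRSF7-OE, and only the first passed. SEMA6B, UPK3B, GDF15 and FAM220A passed in neither line. Among the calls in SRSF7-OE, that of CCN2 was lost in 9 of 13 alternatives (edgeR adjusted p up to 0.116), that of SPTSSA in 8 (up to 0.150), and that of BST2 in a fit of only these groups (0.0856). In SRSF2-OE the call of PLAAT4 was lost in that fit and without SRSF2-OE replicate 3. In the libraries labelled SRSF3-OE, shown for comparison, AJAP1, LRRC38, MYH15, MMP1, PHACTR3 and CCN2 lay above 1xCtrl in every library. KRT1, SPRR1B, SPRR3, IVL, SERPINB3 and FABP4 did not. Of the genes lowest in SRSF2-OE, NGFR, SEMA6B, LCN2, C3, UPK3B, GDF15 and CDK18 lay below all SRSF2-OE libraries in every SRSF3-OE library. FAM220A, PLAAT4, BST2, SUSD2 and SPTSSA did not.

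**Figure D3:**
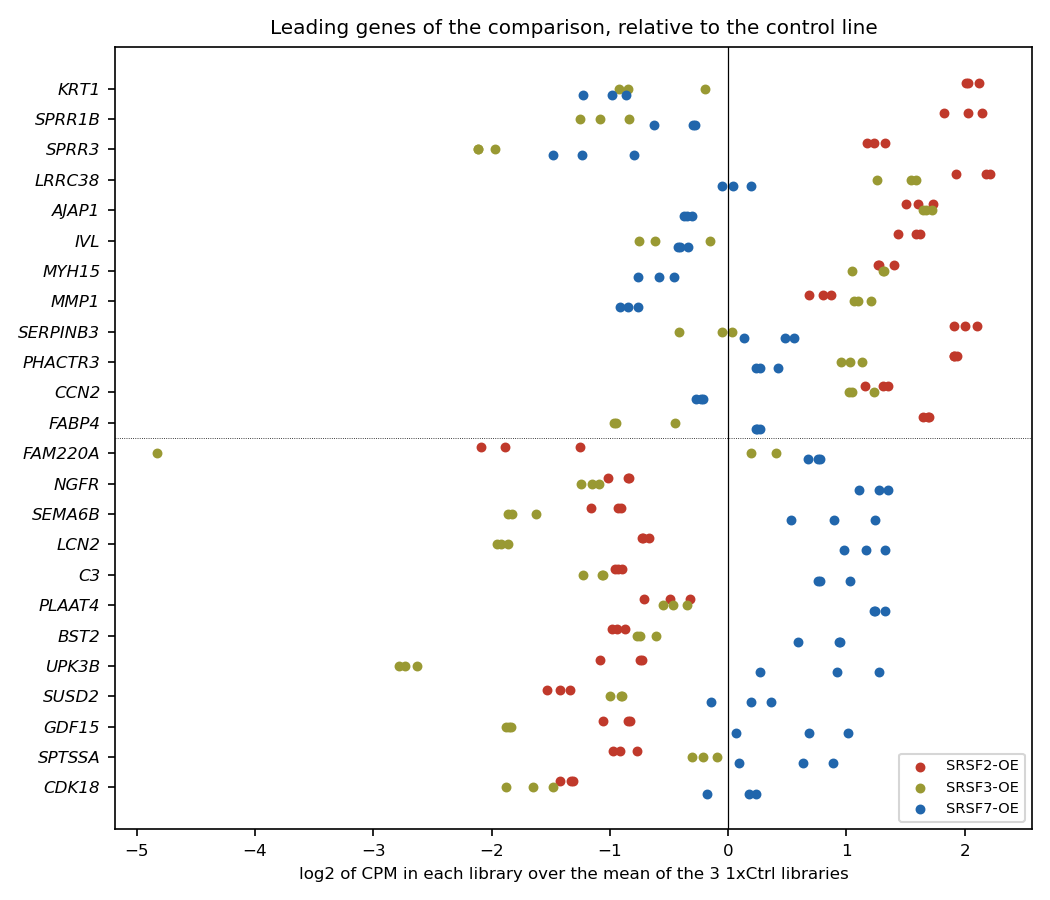
Log2 of the CPM in each library over the mean of the 3 1xCtrl libraries (horizontal axis) for the 24 leading genes (vertical axis), one point per library of SRSF2-OE, SRSF3-OE and SRSF7-OE; the dotted line parts the 12 genes higher in SRSF2-OE from the 12 lower. SRSF2-OE and SRSF7-OE do not overlap in any gene, which the rule for choosing the genes required. For KRT1, MMP1, NGFR and C3 the lines lie on opposite sides of the control mean.

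Genes were then read in 37 lists by function. For each list the count of members called higher and lower in SRSF2-OE is given beside the tested members, to be read against 13.8% higher, 20.9% lower and a median of -0.05 over all genes tested. Up to 4 members of each list were named by a fixed rule (the largest changes among called members of at least 1 CPM). Others named below were chosen after their values were seen. List members were not dropped for sharing exon bases with a gene of their strand. Such sharing was found, for example, in NOP2 (2550 bases), ASNS (1985), TGFB2 (1371), CLDN11 (683) and PSMB10 (644). No list was tested as a set. Of the 8022 called genes 7938 did not overlap between the lines. Lack of overlap in a called member therefore adds little to its call. Values in brackets after a gene are its log2 fold change ± SE of SRSF2-OE over SRSF7-OE, followed by its mean CPM over the 3 libraries of SRSF2-OE against that of SRSF7-OE, and a gene called higher, lower or not passing was so by edgeR's adjusted p. In bulk RNA a change in the number of cells of a type and a change in RNA per cell cannot be told apart.

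**Figure D4:**
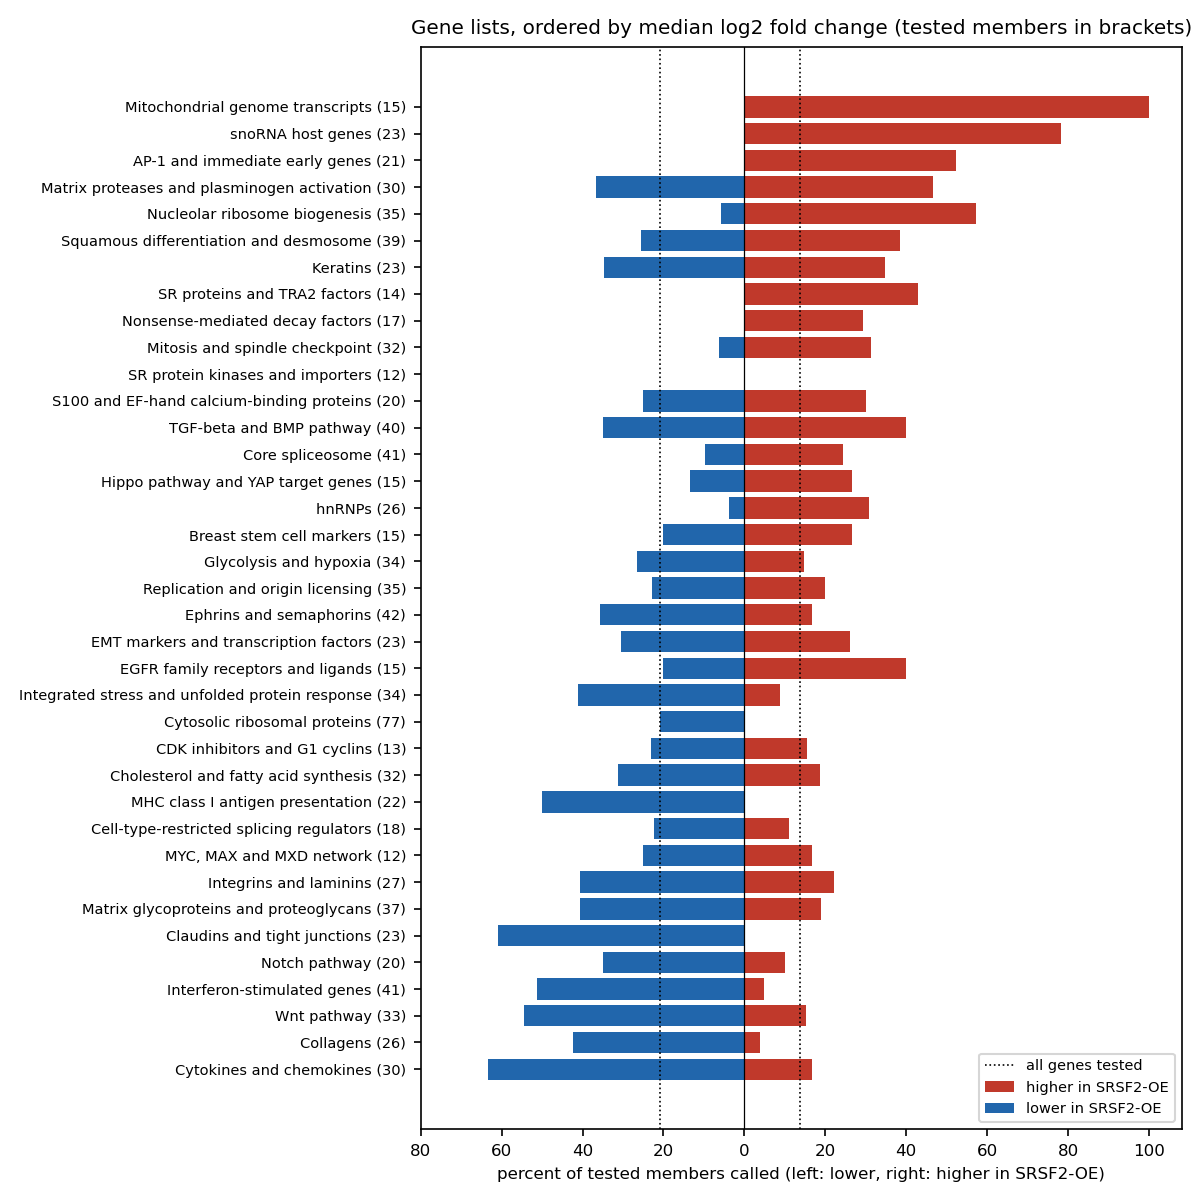
Percent of the tested members of each of 37 gene lists that were called lower (left) or higher (right) in SRSF2-OE than in SRSF7-OE (horizontal axis), with lists ordered by median log2 fold change (vertical axis); dotted lines mark the 20.9% and 13.8% of all genes tested. Mitochondrial genome transcripts and snoRNA host genes stand at the top, and cytokines and collagens at the bottom.

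Several terminal squamous genes were higher in SRSF2-OE, and kallikrein genes of the same epithelium were lower. Of 39 tested members of the list of squamous differentiation and desmosome genes, 15 were higher and 10 lower in SRSF2-OE (23 and 8 under upper-quartile scaling), with a median of 0.14. Besides SPRR1B, SPRR3, IVL and SERPINB3 the higher members included genes of the cornified layer, such as corneodesmosin (CDSN, 1.84 ± 0.213, 1.56 against 0.434 CPM), suprabasin (SBSN, 2.01 ± 0.278, 1.26 against 0.314 CPM), the desmosomal cadherin DSG1 (2.70 ± 0.244, 0.709 against 0.108 CPM) and filaggrin (FLG, 1.33 ± 0.288, 0.541 against 0.214 CPM). TGM1, the transglutaminase that cross-links the envelope, differed by 0.995 (2.54 against 1.27 CPM). TGM3, with the largest value of the list at 3.33, did not pass the test (edgeR adjusted p = 0.0827). The desmosome genes DSP (0.14 ± 0.0576, 845 against 765 CPM), PKP1 (0.10 ± 0.0593, 146 against 137 CPM), DSG3 (0.12 ± 0.0562, 51.7 against 47.7 CPM) and DSC3 (0.11 ± 0.0486, 156 against 145 CPM) did not pass either. Lower in SRSF2-OE were TP63, the transcription factor of basal epithelium (-0.39 ± 0.0644, 145 against 189 CPM), and the epidermal proteases KLK5 (-0.78 ± 0.0465, 65.7 against 113 CPM), KLK7 (-1.19 ± 0.147, 0.992 against 2.26 CPM), KLK8 (-1.05 ± 0.0958, 6.84 against 14.1 CPM) and KLK10 (-0.53 ± 0.0487, 57.5 against 83.3 CPM). All 6 KLK genes of the list were lower in SRSF2-OE.

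Keratins divided in the same way, with 8 of 23 higher and 8 lower in SRSF2-OE (4 lower in the fit of all 12 libraries). Higher were KRT1 and the keratins of activated epidermis, KRT16 (0.98 ± 0.0713, 26.3 against 13.3 CPM), KRT6A (0.74 ± 0.0661, 1153 against 692 CPM) and KRT17 (0.55 ± 0.0995, 83.8 against 57.2 CPM), with KRT6A at 1274, 1102 and 1083 CPM in SRSF2-OE and 694, 678 and 705 CPM in SRSF7-OE. KRT23 differed by 0.78 (1.96 against 1.14 CPM). The simple-epithelial keratins KRT19 (-0.76 ± 0.129, 584 against 989 CPM), KRT8 (-0.44 ± 0.0830, 382 against 519.9 CPM) and KRT7 (-0.29 ± 0.0949, 412 against 505 CPM) were lower, and KRT18 (-0.10 ± 0.0544, 478 against 513 CPM) did not pass the test. The basal pair was divided, since KRT5 was lower (-0.39 ± 0.0712, 1722 against 2253 CPM) and its partner KRT14 higher (0.36 ± 0.0872, 552 against 430.0 CPM). KRT19 stood at 640.4, 558 and 554 CPM in SRSF2-OE and 1005, 819 and 1145 CPM in SRSF7-OE, without overlap, but its call was lost in the fit of all 12 libraries. KRT6A, KRT6B and KRT6C are near copies, so counts may be divided among them wrongly.

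The promoters of SPRR1B and IVL are shown because AP-1, the FOS and JUN dimer, is a known activator of cornified envelope genes. The 250 bases before each start site come from RefSeq (GRCh38.p14), written 5′ to 3′ along the gene, with matches in capitals to the AP-1 site TGANTCA and the TEAD site GGAATG, each searched on both strands. They lie at chr1:153030953-153031202 on the plus strand and chr1:152908296-152908545 on the plus strand.
SPRR1B: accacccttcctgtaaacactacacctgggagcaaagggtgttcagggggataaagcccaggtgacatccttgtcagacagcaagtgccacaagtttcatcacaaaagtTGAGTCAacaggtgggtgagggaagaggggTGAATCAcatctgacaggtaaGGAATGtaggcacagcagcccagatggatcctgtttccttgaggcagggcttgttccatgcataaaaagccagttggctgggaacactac
IVL: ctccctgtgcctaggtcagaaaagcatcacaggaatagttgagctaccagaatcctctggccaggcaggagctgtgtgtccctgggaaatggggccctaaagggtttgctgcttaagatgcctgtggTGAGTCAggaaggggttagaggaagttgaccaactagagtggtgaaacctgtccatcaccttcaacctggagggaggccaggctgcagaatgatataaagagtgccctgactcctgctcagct
SPRR1B held AP-1 matches starting at -141 and -111 and a TEAD match at -90, and IVL an AP-1 match at -123, counted from the start site; SPRR3 held an AP-1 match at -170 and a TEAD match at -91. The AP-1 letters stood in 6.6% of 27305 promoters of this length, in 4.77% of those of 13677 genes tested, in 19.5% of the 154 of genes called 2-fold or more higher in SRSF2-OE and in 6.49% of the 339 of genes called 2-fold or more lower. In the squamous list 9 of 31 promoters held it. Of the genes 2-fold or more apart, promoters were at hand for 154 of 477 higher and 339 of 570 lower in SRSF2-OE. These shares therefore cover only part of each set. The TEAD letters stood in 11.9% of all promoters, 9.74% of those of genes tested, 18.2% of the higher and 13.3% of the lower genes. A match is a description of letters and not evidence of binding, and a part of AP-1 or TEAD in these differences was not tested.

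Early response genes and their negative regulators leaned to SRSF2-OE. Of 21 tested members of the AP-1 and immediate early list, 11 were higher and 0 lower in SRSF2-OE, with a median of 0.27, and 8 to 12 were higher on leaving out 1 library. FOSL1, an AP-1 subunit, stood at 82.7, 73.7 and 76.1 CPM in SRSF2-OE and 37.9, 38.7 and 41.3 CPM in SRSF7-OE (log2 fold change 0.98 ± 0.0577, edgeR adjusted p = 1.78e-06). SPRY4, a feedback inhibitor of receptor tyrosine kinase signalling, stood at 23.9, 26.9 and 26.4 CPM in SRSF2-OE and 12.3, 12.9 and 10.7 CPM in SRSF7-OE (log2 fold change 1.11 ± 0.0805, edgeR adjusted p = 5.47e-06). Both were separated without overlap. The MAP kinase phosphatase DUSP1 (0.61 ± 0.0992, 6.30 against 4.11 CPM) and the AP-1 subunit FOSB (0.54 ± 0.130, 3.25 against 2.23 CPM) were higher too. FOSL2 (0.01 ± 0.0483, 111 against 109.6 CPM), JUNB (-0.18 ± 0.433, 15.5 against 17.6 CPM) and JUND (-0.14 ± 0.135, 5.83 against 6.44 CPM) did not pass the test. In the EGFR family, 6 of 15 were higher and 3 lower in SRSF2-OE. The ligands AREG (0.85 ± 0.0617, 77.8 against 43.0 CPM), HBEGF (0.55 ± 0.0711, 113 against 77.0 CPM) and TGFA (0.43 ± 0.0471, 229 against 170.2 CPM) were higher and EGF (-0.44 ± 0.0542, 21.6 against 29.4 CPM) lower. The receptor EGFR (-0.12 ± 0.0605, 597 against 649.6 CPM) did not pass and ERBB2 (-0.41 ± 0.0472, 102 against 135 CPM) was lower.

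Secreted proteases also divided between the lines, with 14 of 30 members of the list of matrix proteases and plasminogen activation higher and 11 lower in SRSF2-OE. With MMP1, the stromelysins MMP10 (1.56 ± 0.167, 3.18 against 1.078 CPM) and MMP3 (1.32 ± 0.179, 1.498 against 0.599 CPM) were higher, as was the plasminogen activator inhibitor SERPINB2 (1.09 ± 0.0594, 99.3 against 46.6 CPM). MMP1, MMP3, MMP10 and MMP13 are neighbours on chromosome 11, and MMP13 (-1.14 ± 0.103, 3.93 against 8.68 CPM) was lower in SRSF2-OE, with 3.54, 3.99 and 4.26 CPM in SRSF2-OE and 9.19, 8.92 and 7.92 CPM in SRSF7-OE. The membrane-type MMP15 (-0.89 ± 0.147, 15.96 against 29.6 CPM) and MMP14 (-0.26 ± 0.0522, 264 against 317 CPM) and the inhibitors TIMP2 (-0.44 ± 0.0498, 242 against 328 CPM) and TIMP3 (-0.33 ± 0.0592, 350.5 against 441 CPM) were lower as well.

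Some target genes of YAP, the transcriptional coactivator restrained by the Hippo pathway, were higher in SRSF2-OE, though YAP1 itself was not. Of 15 tested members of that list 4 were higher and 2 lower in SRSF2-OE (1 lower without SRSF2-OE replicate 2 or 3 or SRSF7-OE replicate 2 or 3). The higher ones were CCN2, CCN1, ANKRD1 and F3, which include the best known YAP targets. CCN1 stood at 61.8, 71.1 and 71.4 CPM in SRSF2-OE and 28.7, 29.5 and 27.5 CPM in SRSF7-OE (log2 fold change 1.25 ± 0.0637, edgeR adjusted p = 8.05e-07), and ANKRD1 at 16.4, 16.5 and 15.1 CPM in SRSF2-OE and 6.64, 7.63 and 6.88 CPM in SRSF7-OE (log2 fold change 1.18 ± 0.0811, edgeR adjusted p = 4.13e-06). F3, tissue factor, stood at 1869, 2175 and 2170.2 CPM in SRSF2-OE and 1409.7, 1375 and 1382 CPM in SRSF7-OE (log2 fold change 0.58 ± 0.0660, edgeR adjusted p = 9.27e-05). None of the 3 overlapped between the lines. YAP1 (-0.16 ± 0.0485, 152 against 170.0 CPM) and TEAD2 (-0.53 ± 0.0658, 18.5 against 26.7 CPM) were lower, and AXL (-0.05 ± 0.0700, 24.0 against 24.8 CPM), CRIM1 (-0.02 ± 0.0543, 248 against 251 CPM) and AMOTL2 (0.14 ± 0.0550, 87.8 against 79.5 CPM), also known as YAP targets, did not pass the test. The promoter of CCN2 is shown because its TEAD sites are textbook sites of YAP action. It lies at chr6:131951373-131951622 on the minus strand (RefSeq, GRCh38.p14), with matches to GGAATG in capitals.
CCN2: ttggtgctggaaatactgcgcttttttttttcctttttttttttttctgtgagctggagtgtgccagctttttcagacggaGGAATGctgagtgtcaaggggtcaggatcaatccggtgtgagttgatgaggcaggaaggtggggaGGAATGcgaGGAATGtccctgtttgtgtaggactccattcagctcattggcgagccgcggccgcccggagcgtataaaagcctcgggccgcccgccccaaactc
It held 3 matches, starting at -169, -104 and -95 from the start site.

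In the TGF-beta and BMP pathway 16 of 40 members were higher and 14 lower in SRSF2-OE, with a median of 0.05. Several inhibitors and target genes stood on the higher side. NOG, the secreted BMP antagonist noggin, stood at 2.09, 2.098 and 2.31 CPM in SRSF2-OE and 0.517, 0.645 and 0.485 CPM in SRSF7-OE (log2 fold change 1.98 ± 0.156, edgeR adjusted p = 8.36e-06). ID2, a BMP target and inhibitor of helix-loop-helix factors, stood at 15.3, 16.2 and 14.9 CPM in SRSF2-OE and 6.24, 7.16 and 7.32 CPM in SRSF7-OE (log2 fold change 1.16 ± 0.0838, edgeR adjusted p = 5.35e-06). ID3 (0.57 ± 0.0956, 123 against 83.0 CPM), ID4 (0.79 ± 0.0930, 13.4 against 7.74 CPM), SMAD7 (0.68 ± 0.109, 6.21 against 3.88 CPM) and SMAD6 (0.49 ± 0.0684, 16.6 against 11.8 CPM), which are also induced by these pathways, were higher, and ID1 (0.26 ± 0.193, 99.4 against 83.0 CPM) did not pass the test. Of 10 receptors 7 were lower: TGFBR1 (-0.27 ± 0.0534, 43.2 against 52.2 CPM), TGFBR2 (-0.26 ± 0.0477, 126 against 151 CPM), TGFBR3 (-0.57 ± 0.0596, 33.2 against 49.1 CPM), BMPR1A (-0.38 ± 0.0496, 75.4 against 98.4 CPM), BMPR2 (-0.33 ± 0.0463, 69.5 against 87.2 CPM), ACVR1B (-0.38 ± 0.0568, 33.7 against 43.8 CPM) and ACVR2B (-0.66 ± 0.0809, 6.04 against 9.58 CPM). ACVR1 (0.24 ± 0.0514, 28.4 against 24.0 CPM) and ACVR2A (0.40 ± 0.0723, 23.2 against 17.5 CPM) were higher. The ligand TGFB2 was lower, at 8.003, 8.04 and 8.93 CPM in SRSF2-OE and 17.2, 17.0 and 17.3 CPM in SRSF7-OE (log2 fold change -1.05 ± 0.0719, edgeR adjusted p = 4.13e-06).

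Interferon and antigen presentation genes were more often lower than higher in SRSF2-OE. Of 41 interferon-stimulated genes 2 were higher (1 without SRSF2-OE replicate 2 or 3 or SRSF7-OE replicate 1 or 3) and 21 lower in SRSF2-OE, with a median of -0.28 (16 lower under upper-quartile scaling). After BST2, the largest differences of the named members were in IFITM1 (-1.32 ± 0.0792, 15.3 against 38.0 CPM) and IFITM2 (-1.27 ± 0.111, 4.57 against 11.01 CPM), which block viral entry, and in OASL (-1.31 ± 0.110, 2.87 against 7.11 CPM), a member of the oligoadenylate synthetase family. IFITM1 stood at 16.2, 13.3 and 16.3 CPM in SRSF2-OE and 39.4, 37.5 and 37.3 CPM in SRSF7-OE, and OASL at 3.06, 3.08 and 2.46 CPM in SRSF2-OE and 7.49, 6.89 and 6.94 CPM in SRSF7-OE, both without overlap. IFITM genes are near copies, so their counts are uncertain among themselves. The transcription factor IRF1 was lower (-0.92 ± 0.0533, 19.7 against 37.3 CPM) and IRF9 higher (0.39 ± 0.103, 7.47 against 5.70 CPM). STAT2 (0.13 ± 0.0513, 78.2 against 71.4 CPM), MX1 (-0.04 ± 0.0505, 41.6 against 42.9 CPM) and MX2 (-0.13 ± 0.0555, 54.5 against 59.5 CPM) did not pass the test. ISG15, at -0.97 (4.88 against 9.54 CPM), did not pass either (edgeR adjusted p = 0.113).

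In the MHC class I list 0 of 22 members were higher and 11 lower in SRSF2-OE, with a median of -0.17, and under upper-quartile scaling 5 were higher and 9 lower. The inducible proteasome subunits PSMB10 (-1.37 ± 0.277, 1.37 against 3.53 CPM), PSMB9 (12.6 against 25.2 CPM) and PSMB8 (-0.21 ± 0.0465, 60.4 against 70.0 CPM) were lower. B2M, the light chain of all class I molecules, stood at 1163, 1149 and 1247 CPM in SRSF2-OE and 1848, 1906 and 1709 CPM in SRSF7-OE (log2 fold change -0.62 ± 0.0605, edgeR adjusted p = 3.47e-05), without overlap. HLA-F (-0.83 ± 0.112, 20.9 against 37.1 CPM) and HLA-B (-0.50 ± 0.0536, 90.2 against 128 CPM) were lower and HLA-C (0.10 ± 0.0613, 85.6 against 80.0 CPM) did not pass, with the reservation that reads of HLA genes are easily assigned to one another. The call for PSMB10 was lost in the fit of all 12 libraries. The promoter of BST2 is shown because BST2 leads the interferon list and factors of the interferon response bind repeated GAAA elements. It lies at chr19:17405631-17405880 on the minus strand (RefSeq, GRCh38.p14), with capitals for matches, on either strand, to GAAA, any 2 bases and GAAA again.
BST2: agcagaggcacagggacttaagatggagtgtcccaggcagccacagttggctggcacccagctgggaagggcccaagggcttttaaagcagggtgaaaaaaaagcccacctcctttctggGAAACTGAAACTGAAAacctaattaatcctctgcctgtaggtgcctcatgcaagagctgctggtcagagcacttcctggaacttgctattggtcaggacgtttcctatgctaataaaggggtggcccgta
It held overlapping matches starting at -130 and -124 from the start site. These letters stood in 3.07% of all promoters, 2.48% of those of genes tested, 20 of 33 promoters of the interferon list and 7 of 18 of the MHC class I list. They stood in 1.95% of the 154 promoters at hand for genes 2-fold or more higher in SRSF2-OE. For genes 2-fold or more lower it was 3.54% of 339. Of the other lower genes searched, IFITM1 held a match at -40 and PSMB9 held 0.

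Cytokines and chemokines had the lowest median of the lists, -0.47, with 5 of 30 tested members higher (3 without SRSF2-OE replicate 2) and 19 lower in SRSF2-OE. On leaving out 1 library 17 to 19 were lower. CCL20, a chemokine of mucosal epithelia, stood at 0.965, 1.02 and 1.09 CPM in SRSF2-OE and 3.58, 3.86 and 3.75 CPM in SRSF7-OE (log2 fold change -1.86 ± 0.115, edgeR adjusted p = 2.25e-06). CCL5, which attracts T cells, stood at 0.355, 0.361 and 0.565 CPM in SRSF2-OE and 1.55, 1.83 and 1.78 CPM in SRSF7-OE (log2 fold change -2.02 ± 0.203, edgeR adjusted p = 4.06e-05). IL1B stood at 11.8, 11.52 and 10.2 CPM in SRSF2-OE and 21.9, 24.2 and 23.3 CPM in SRSF7-OE (log2 fold change -1.05 ± 0.0732, edgeR adjusted p = 4.36e-06), and CXCL8, the neutrophil chemokine, differed by -0.91 (13.3 against 25.0 CPM). None of these named members overlapped between the lines. CXCL5 (-1.56 ± 0.237, 0.559 against 1.64 CPM), the interferon-induced CXCL10 (-3.01 ± 0.484, 0.0691 against 0.576 CPM) and TNF (-1.78 ± 0.446, 0.178 against 0.599 CPM) were lower at low levels. Higher in SRSF2-OE were IL24 (2.20 ± 0.253, 1.13 against 0.244 CPM), CSF2 (0.77 ± 0.172, 1.083 against 0.633 CPM), IL11 (0.71 ± 0.150, 2.75 against 1.68 CPM), IL1RN (0.38 ± 0.115, 7.31 against 5.63 CPM) and IL18 (0.20 ± 0.0539, 129.9 against 113 CPM). The leukocyte markers PTPRC (-1.04 ± 0.283, 0.204 against 0.424 CPM) and CD14 (-1.35 ± 0.164, 0.722 against 1.84 CPM) were lower too, at levels of at most 2.11 CPM in a library, with CD68 (-0.05 ± 0.0738, 21.3 against 22.0 CPM) not passing the test and CD3E and LYZ below the filter, and their part in these results was not tested.

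**Figure D5:**
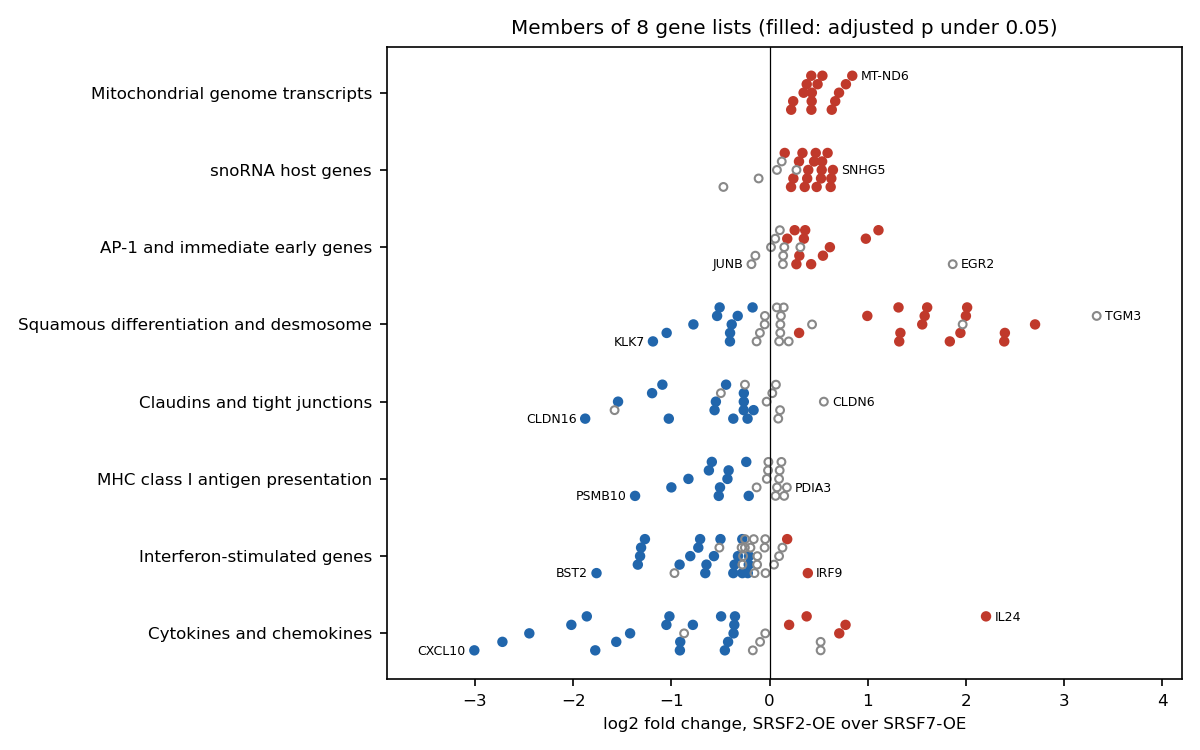
Log2 fold change of SRSF2-OE over SRSF7-OE (horizontal axis) of every tested member of 8 gene lists (vertical axis, points spread within a list for legibility); filled points have an adjusted p under 0.05 and open points do not, and the members at the ends are named. All mitochondrial members lie above 0, the squamous members spread to both sides, and the cytokines reach from CXCL10 to IL24.

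Of 23 tight junction genes 0 were higher in SRSF2-OE and 14 lower, with a median of -0.26 (8 lower under upper-quartile scaling). CLDN1 stood at 164, 164 and 186 CPM in SRSF2-OE and 389, 357 and 349 CPM in SRSF7-OE (log2 fold change -1.09 ± 0.0646, edgeR adjusted p = 1.78e-06). CLDN11 stood at 64.6, 60.7 and 73.7 CPM in SRSF2-OE and 129, 133 and 143 CPM in SRSF7-OE (log2 fold change -1.03 ± 0.0723, edgeR adjusted p = 7.66e-06). Both claudins, strand proteins of the junction, were separated without overlap, as was CLDN8 (-1.20 ± 0.0638, 12.7 against 29.1 CPM). CLDN4 (-0.55 ± 0.0797, 85.8 against 125 CPM), CLDN7 (-0.37 ± 0.0873, 218 against 281 CPM), occludin (OCLN, -0.26 ± 0.0605, 14.1 against 17.0 CPM) and the scaffold TJP3 (-1.54 ± 0.183, 0.775 against 2.25 CPM) were lower. The scaffold TJP1 (0.03 ± 0.0496, 92.8 against 91.1 CPM) did not pass the test. In the list of epithelial-mesenchymal transition 6 of 23 were higher and 7 lower (4 under upper-quartile scaling): OVOL1, an epithelial transcription factor (1.03 ± 0.0690, 22.1 against 10.8 CPM), was higher, as were FOXC2 (1.01 ± 0.109, 8.16 against 4.04 CPM) and SNAI2 (0.51 ± 0.0564, 40.7 against 28.5 CPM) in SRSF2-OE, and fibronectin (FN1, -0.85 ± 0.0710, 49.7 against 89.6 CPM), ACTA2 (-1.11 ± 0.186, 0.962 against 2.08 CPM) and CDH2 (-0.29 ± 0.0632, 15.1 against 18.5 CPM) were lower. CDH1, E-cadherin, did not pass (-0.15 ± 0.0522, 353 against 390.2 CPM).

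Matrix genes were more often lower than higher in SRSF2-OE. Of 26 collagens 1 was higher and 11 lower, with a median of -0.32. COL5A2, a fibrillar collagen, stood at 112, 119 and 114 CPM in SRSF2-OE and 256, 234 and 236 CPM in SRSF7-OE (log2 fold change -1.07 ± 0.0522, edgeR adjusted p = 6.61e-07). The count of lower collagens was 0 against a minimum of 2-fold, 4 in the fit of all 12 libraries, 15 without SRSF7-OE replicate 2, and 6 or 7 without SRSF2-OE replicate 1, 2 or 3 or SRSF7-OE replicate 1. The calls of COL6A2 (-1.22 ± 0.266, 16.4 against 38.2 CPM), COL16A1 (-0.79 ± 0.193, 17.0 against 29.3 CPM) and COL9A3 (-0.71 ± 0.212, 3.68 against 6.02 CPM) were lost on leaving out SRSF2-OE replicate 1, 2 or 3 or SRSF7-OE replicate 1, and in the fit of all 12 libraries. COL17A1, the hemidesmosomal collagen, was the member that was higher (0.20 ± 0.0506, 1190.4 against 1034 CPM), though the higher members numbered 0 without SRSF2-OE replicate 2 and 3 under upper-quartile scaling. Among matrix glycoproteins and proteoglycans 7 of 37 were higher (4 without SRSF2-OE replicate 2 or SRSF7-OE replicate 3) and 15 lower. FN1 stood at 50.6, 53.9 and 44.7 CPM in SRSF2-OE and 92.1, 92.5 and 84.3 CPM in SRSF7-OE, and perlecan (HSPG2) at 25.6, 20.6 and 23.7 CPM in SRSF2-OE and 64.6, 42.4 and 71.5 CPM in SRSF7-OE. Neither overlapped between the lines. FBLN2 was lower (-1.42 ± 0.196, 2.47 against 6.60 CPM), and ECM1, an epidermal matrix protein (0.93 ± 0.0737, 16.9 against 8.89 CPM), and TGFBI (0.62 ± 0.0579, 455 against 297 CPM) were higher.

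Among integrins and laminins 6 of 27 were higher and 11 lower in SRSF2-OE (7 lower without SRSF7-OE replicate 1 or under upper-quartile scaling). The laminin chains LAMA3 (0.59 ± 0.0552, 605 against 403 CPM) and LAMB3 (0.47 ± 0.0755, 1229 against 886 CPM), of the anchoring laminin of stratified epithelium, were higher. LAMA3 stood at 594, 630.0 and 591 CPM in SRSF2-OE and 414, 417 and 379 CPM in SRSF7-OE. The laminin receptor subunit ITGA6 was higher (0.26 ± 0.0574, 1983 against 1659 CPM) and ITGB4 did not pass (-0.35 ± 0.192, 489 against 624 CPM). Chains of other laminins were lower, namely LAMA4 (-0.46 ± 0.0585, 73.1 against 100.5 CPM), LAMB1 (-0.20 ± 0.0553, 411 against 472 CPM), LAMB2 (-0.48 ± 0.0743, 47.2 against 66.0 CPM) and LAMC3 (-0.91 ± 0.262, 0.570 against 1.077 CPM), and so was the leukocyte integrin chain ITGB2 (-1.55 ± 0.133, 0.800 against 2.35 CPM). LAMB2 lost its call in the fit of all 12 libraries.

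Wnt genes were lower in SRSF2-OE more often than higher, with 5 of 33 higher, 18 lower and a median of -0.28. WNT4 (-1.38 ± 0.176, 0.600 against 1.56 CPM), WNT3A (-1.34 ± 0.307, 2.12 against 5.35 CPM), WNT5A (-0.77 ± 0.0788, 6.86 against 11.7 CPM), WNT7B (-0.51 ± 0.148, 31.3 against 44.4 CPM) and WNT10A (-0.61 ± 0.0637, 65.6 against 100.4 CPM) were lower, as were 6 frizzled receptors including FZD6 (-0.28 ± 0.0499, 193 against 234 CPM) and the coreceptor LRP5 (-1.080 ± 0.213, 36.0 against 76.1 CPM). WNT10A stood at 64.8, 63.5 and 68.5 CPM in SRSF2-OE and 107, 90.9 and 103 CPM in SRSF7-OE, without overlap. The calls of WNT3A and LRP5 were lost on leaving out SRSF2-OE replicate 1, 2 or 3 or SRSF7-OE replicate 1, and in the fit of all 12 libraries. FZD8 (0.81 ± 0.0608, 55.0 against 31.3 CPM), the feedback target AXIN2 (0.55 ± 0.0948, 12.3 against 8.42 CPM) and the secreted inhibitor DKK1 (0.71 ± 0.0557, 474 against 289 CPM) were higher, with DKK1 at 453, 458 and 511 CPM in SRSF2-OE and 287, 289 and 290.1 CPM in SRSF7-OE. In the Notch pathway 2 of 20 were higher (1 on leaving out any library but SRSF2-OE replicate 1) and 7 lower (12 without SRSF7-OE replicate 2). DLL4, a ligand, was higher (1.03 ± 0.156, 1.35 against 0.661 CPM), and the receptors NOTCH3 (-0.73 ± 0.124, 90.9 against 151 CPM) and NOTCH2 (-0.23 ± 0.0596, 125 against 146 CPM), the ligand DLL3 (-0.74 ± 0.147, 0.769 against 1.29 CPM) and the target HEYL (-0.70 ± 0.141, 1.23 against 1.99 CPM) were lower. NOTCH1 (-0.66 ± 0.208, 28.5 against 45.1 CPM) did not pass the test. Among ephrins, semaphorins and their receptors 7 of 42 were higher (13 with the GC trend removed) and 15 lower. EPHB6, a kinase-inactive ephrin receptor, stood at 10.3, 9.56 and 10.03 CPM in SRSF2-OE and 4.04, 3.29 and 3.90 CPM in SRSF7-OE (log2 fold change 1.41 ± 0.0995, edgeR adjusted p = 4.76e-06), without overlap, and EFNB3 (-1.079 ± 0.0735, 6.58 against 13.9 CPM), SEMA3E (-0.87 ± 0.131, 2.61 against 4.77 CPM) and SEMA3F (-0.84 ± 0.124, 23.5 against 42.2 CPM) were lower.

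Splicing factors other than the overexpressed ones differed by small amounts. Of 14 SR proteins and TRA2 factors 6 were higher and 0 lower in SRSF2-OE, with a median of 0.12 (10 higher under upper-quartile scaling); SRSF2 and SRSF3 are among the 6. SRSF6 differed most, at 366, 414 and 401 CPM in SRSF2-OE, 271, 262 and 253 CPM in SRSF7-OE and 264, 249 and 277 CPM in 1xCtrl (log2 fold change 0.59 ± 0.0572, edgeR adjusted p = 3.35e-05), without overlap between the lines. SRSF10 (0.28 ± 0.0542, 302 against 249.6 CPM), SRSF4 (0.26 ± 0.0553, 134 against 113 CPM) and TRA2B (0.26 ± 0.0471, 323 against 271 CPM) were higher too, and SRSF1 (-0.09 ± 0.0472, 278 against 297 CPM), SRSF5 (0.10 ± 0.0541, 252 against 235 CPM) and SRSF11 (0.12 ± 0.0510, 341 against 315 CPM) did not pass the test. None of 12 SR protein kinases and importers passed, though 5 were higher under upper-quartile scaling and 4 with the GC trend removed. Of 26 hnRNPs, proteins that often oppose SR proteins, 8 were higher (5 without SRSF2-OE replicate 2) and 1 lower, with a median of -0.01 whose sign turned under several scalings. HNRNPU (0.27 ± 0.0510, 889 against 738 CPM), HNRNPAB (0.27 ± 0.0509, 209 against 174 CPM) and PTBP2 (0.32 ± 0.0743, 20.9 against 16.7 CPM) were higher and PTBP3 (-0.28 ± 0.0602, 105 against 128 CPM) lower, the last call being lost under upper-quartile scaling. Of 41 core spliceosome genes 10 were higher and 4 lower (20 and 1 under upper-quartile scaling, 6 higher without SRSF2-OE replicate 1 or 2 or SRSF7-OE replicate 1). Among them were PRPF3 (0.46 ± 0.0559, 96.6 against 70.0 CPM), U2AF1 (0.33 ± 0.0463, 71.7 against 57.1 CPM) and CWC22 (0.33 ± 0.0513, 185 against 147 CPM) higher and SF3B5 (-0.40 ± 0.0661, 24.3 against 31.99 CPM) lower, a call lost in the fit of all 12 libraries. Of 17 nonsense-mediated decay factors 5 were higher and 0 lower (10 higher under upper-quartile scaling), led by SMG8 (0.29 ± 0.0533, 32.7 against 26.8 CPM) and EIF4A3 (0.25 ± 0.0499, 119 against 99.6 CPM). Of 18 tested cell-type-restricted regulators 2 were higher and 4 lower, among them the epithelial regulator ESRP2 (0.37 ± 0.0473, 92.9 against 71.7 CPM) and, on the lower side, MBNL2 (-0.35 ± 0.0667, 17.6 against 22.4 CPM), QKI (-0.31 ± 0.0647, 98.3 against 122 CPM) and ELAVL2 (-0.31 ± 0.0855, 6.53 against 8.07 CPM). The QKI call was lost under upper-quartile scaling, and the ELAVL2 call there, with the GC trend removed, and without SRSF2-OE replicate 2 or SRSF7-OE replicate 3. The lower members numbered 2 without SRSF2-OE replicate 2 and 1 under upper-quartile scaling, and the higher members 1 without SRSF2-OE replicate 2 or 3 or SRSF7-OE replicate 1 or 3.

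Genes of ribosome production and of the mitochondrial genome were higher in SRSF2-OE in large shares. Small nucleolar RNAs (snoRNAs), which guide rRNA modification, lie in introns of host genes, and many host transcripts are degraded by nonsense-mediated decay. Of 23 snoRNA host genes 18 were higher and 0 lower, with a median of 0.38 and 16 to 17 higher on leaving out 1 library. SNHG1 stood at 376, 432 and 419 CPM in SRSF2-OE and 282, 295 and 276 CPM in SRSF7-OE, SNHG12 at 116, 148 and 138 CPM and 89.2, 86.6 and 84.1 CPM, and SNHG5 at 57.7, 64.4 and 62.6 CPM and 40.2, 40.3 and 37.6 CPM in the same order. None of these overlapped between the lines. GAS5 (0.34 ± 0.0593, 531 against 421 CPM) was higher and SNHG14 (-0.11 ± 0.0501, 124 against 134 CPM) did not pass the test. In the list of nucleolar ribosome biogenesis 20 of 35 were higher and 2 lower (0 lower without SRSF2-OE replicate 2 or 3), with a median of 0.17 (29 higher under upper-quartile scaling, 13 without SRSF2-OE replicate 2 and 12 without SRSF7-OE replicate 1). NOP56, a snoRNP core protein, stood at 524, 589 and 557 CPM in SRSF2-OE and 396, 402 and 387 CPM in SRSF7-OE (log2 fold change 0.49 ± 0.0545, edgeR adjusted p = 7.45e-05), without overlap. NOP2 (0.50 ± 0.0467, 156 against 111 CPM), UTP14A (0.52 ± 0.0558, 41.2 against 28.7 CPM) and POLR1C (0.46 ± 0.0579, 66.9 against 48.5 CPM) were higher, and fibrillarin (FBL, -0.20 ± 0.0535, 106 against 122 CPM) and NHP2 (-0.31 ± 0.0872, 25.1 against 31.2 CPM) lower. Of 77 cytosolic ribosomal proteins 0 were higher and 16 lower (7 without SRSF2-OE replicate 2, 5 without SRSF2-OE replicate 3, 9 without SRSF7-OE replicate 1), with a median of -0.09, which turned positive under upper-quartile scaling, where 5 were higher and 2 lower.

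All 15 mitochondrial genome transcripts examined were higher in SRSF2-OE (13 to 15 on leaving out 1 library), with a median of 0.43. MT-ND1, a subunit of respiratory complex I, stood at 5682, 6446 and 6681 CPM in SRSF2-OE and 3818, 3665 and 3489 CPM in SRSF7-OE (log2 fold change 0.78 ± 0.0721, edgeR adjusted p = 2.46e-05). MT-ND6, the only protein-coding gene on the light strand, stood at 215, 239 and 296 CPM in SRSF2-OE and 144, 139 and 135 CPM in SRSF7-OE (log2 fold change 0.84 ± 0.115, edgeR adjusted p = 0.00179). In both, the ranges did not overlap. Their smallest difference was in MT-ATP8 (0.22 ± 0.0582, 2016 against 1731 CPM). The 1xCtrl libraries had MT-ND1 and MT-ND6 at 5159, 4459 and 4915 CPM and 239.5, 178 and 198 CPM. The share of counts from mitochondrial genes, given above, moved with the lines, and its part in the other results was not tested.

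Proliferation genes went in both directions, with counts that the scaling moved. Of 35 replication genes 7 were higher and 8 lower in SRSF2-OE (15 and 1 under upper-quartile scaling). Without SRSF2-OE replicate 1, SRSF7-OE replicate 1 or SRSF7-OE replicate 3 the higher genes were 4, without SRSF2-OE replicate 2 or 3 the lower were 3, and without SRSF7-OE replicate 1 the lower were 5. Among them were ORC6 (0.47 ± 0.0561, 59.6 against 43.1 CPM) and GINS3 (0.42 ± 0.0551, 21.5 against 16.1 CPM) higher and MCM6 (-0.33 ± 0.0483, 52.1 against 65.5 CPM) and PCNA (-0.25 ± 0.0630, 97.1 against 115 CPM) lower. Of 32 mitosis genes 10 were higher and 2 lower (17 higher under upper-quartile scaling, 6 without SRSF2-OE replicate 2 or SRSF7-OE replicate 1), with AURKA (0.32 ± 0.0620, 147 against 118 CPM) and CCNB1 (0.30 ± 0.0577, 299 against 244 CPM) higher and CDK1 (-0.34 ± 0.0540, 189 against 238 CPM) and MAD2L1 (-0.35 ± 0.0592, 68.3 against 87.2 CPM) lower. The CDK inhibitor CDKN1A stood at 46.7, 43.3 and 42.4 CPM in SRSF2-OE and 29.2, 28.6 and 28.5 CPM in SRSF7-OE (log2 fold change 0.62 ± 0.0530, edgeR adjusted p = 1.47e-05) and cyclin E1 (CCNE1) at 79.4, 80.4 and 82.8 CPM in SRSF2-OE and 50.3, 54.6 and 54.5 CPM in SRSF7-OE (log2 fold change 0.61 ± 0.0497, edgeR adjusted p = 1.09e-05). Both were separated without overlap, though they act against each other on CDK2. In all, 2 of 13 CDK inhibitors and G1 cyclins were higher and 3 lower (5 and 0 under upper-quartile scaling, where CDKN1B, -0.29 ± 0.0698, 29.9 against 36.6 CPM, lost its lower call). Without SRSF2-OE replicate 1 the lower were 5, and without SRSF2-OE replicate 2 there was 1. In the MYC network 2 of 12 were higher (5 under upper-quartile scaling, 1 without SRSF2-OE replicate 2 or SRSF7-OE replicate 1) and 3 lower (5 without SRSF7-OE replicate 2). In that list MXD1, a MYC antagonist that rises in epithelial differentiation, was the largest change, at 61.4, 63.3 and 62.2 CPM in SRSF2-OE and 34.1, 34.3 and 32.9 CPM in SRSF7-OE (log2 fold change 0.88 ± 0.0458, edgeR adjusted p = 8.64e-07).

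In the list of integrated stress and unfolded protein response 3 of 34 were higher and 14 lower, with a median of -0.09 that turned positive under upper-quartile scaling (9 higher and 9 lower). Without SRSF2-OE replicate 2 the higher member was 1. The lower members included enzymes of serine and asparagine synthesis that ATF4 induces, PHGDH (-0.76 ± 0.0542, 92.3 against 157 CPM), PSAT1 (-0.65 ± 0.0532, 102 against 159 CPM) and ASNS (-0.65 ± 0.0513, 41.5 against 64.9 CPM), with cystathionine gamma-lyase (CTH, -0.80 ± 0.0608, 16.4 against 28.5 CPM) and the mTORC1 inhibitor DDIT4 (-0.83 ± 0.0655, 126 against 223 CPM). PHGDH stood at 98.8, 90.5 and 87.7 CPM in SRSF2-OE and 158, 152 and 159.7 CPM in SRSF7-OE, without overlap. PPP1R15A, a stress-induced phosphatase subunit (0.46 ± 0.0496, 96.5 against 70.2 CPM), was higher. Of 32 cholesterol and fatty acid synthesis genes 6 were higher (2 without SRSF2-OE replicate 2, 3 without SRSF7-OE replicate 3) and 10 lower (16 without SRSF7-OE replicate 2). The desaturases SCD (-0.56 ± 0.0596, 1972 against 2916 CPM) and FADS2 (-0.73 ± 0.0502, 99.1 against 165 CPM) and the regulator SREBF2 (-0.52 ± 0.0480, 163 against 234 CPM) were lower. Of 34 glycolysis and hypoxia genes 5 were higher (8 under upper-quartile scaling) and 9 lower (5 without SRSF2-OE replicate 2 or 3). Hexokinase 2 (HK2, 0.60 ± 0.0521, 49.4 against 32.7 CPM) was higher, and CA9, a hypoxia-induced carbonic anhydrase (-0.96 ± 0.116, 4.06 against 7.91 CPM), ALDOC (-0.66 ± 0.0773, 25.2 against 39.8 CPM) and GAPDH (-0.30 ± 0.0757, 2136 against 2638 CPM) were lower.

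Of 20 S100 and related calcium-binding genes 6 were higher and 5 lower in SRSF2-OE. The calprotectin chains S100A8, at 13.4, 15.7 and 15.1 CPM in SRSF2-OE and 7.27, 7.46 and 6.37 CPM in SRSF7-OE (log2 fold change 1.07 ± 0.0911, edgeR adjusted p = 1.43e-05), and S100A9 (0.40 ± 0.0841, 21.8 against 16.6 CPM) were higher, and calretinin (CALB2, -1.35 ± 0.143, 2.14 against 5.44 CPM) and EFHD1 (-1.97 ± 0.150, 0.440 against 1.73 CPM) lower. Of 15 tested breast stem cell markers 4 were higher (2 without SRSF2-OE replicate 2 or 3) and 3 lower (5 without SRSF7-OE replicate 1). CD44, the hyaluronan receptor, stood at 9319.8, 10138 and 9971 CPM in SRSF2-OE and 7162, 6963 and 6392 CPM in SRSF7-OE (log2 fold change 0.52 ± 0.0666, edgeR adjusted p = 0.000184), without overlap. THY1 (-0.63 ± 0.0738, 10.7 against 16.7 CPM) and nestin (NES, -0.69 ± 0.140, 1.71 against 2.76 CPM) were lower, as was ALDH1A3 (-0.23 ± 0.05003, 210.1 against 247 CPM). Of the luminal markers 0 of 8 were higher and 5 lower (3 in the fit of all 12 libraries), FOXA1 (-0.76 ± 0.0589, 12.6 against 21.4 CPM), AGR2 (-0.64 ± 0.0679, 79.8 against 124 CPM) and GATA3 (-0.30 ± 0.0654, 21.03 against 25.8 CPM) among them, and ESR1 (0.02 ± 0.0745, 10.9 against 10.8 CPM) did not pass the test. Of the 9 basal markers 4 were higher (2 in the fit of all 12 libraries) and 3 lower, as given for KRT5, KRT14 and TP63.

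The calls were spread unevenly over kinds of gene. Of 15454 protein-coding genes tested 2261 were higher in SRSF2-OE (14.6%) and 4377 lower (28.3%). Of 365 genes annotated as sense intronic 65 were higher and 9 lower, with a median log2 fold change of 0.27, and of 134 snoRNA genes 33 were higher and 0 lower, with a median of 0.47. Both classes mostly lie within introns of other genes, so their counts may hold reads of the host transcripts, and snoRNAs are poorly captured by polyA selection. By transcript GC content, from the lowest to the highest quintile, 26.6%, 19.2%, 16.1%, 19.1% and 25.1% of genes were lower in SRSF2-OE, and 13.4%, 16.4%, 16.9%, 15.3% and 7.24% higher. Genes of extreme GC content were thus more often lower, and removing each library's GC trend gave 4402 higher and 4605 lower, or 48.9% higher. By transcript length the share lower rose from 6.60% in the shortest quintile to 30.4% in the longest. The shortest genes also had fewer calls in all. Among nuclear chromosomes the medians ran from -0.11 on chromosome 22 to 0.03 on chromosome 3, and the 37 mitochondrial genes tested had a median of 0.67, with 34 higher and 0 lower.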

How the data were processed

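Polyadenylated RNA was sequenced as stranded paired-end libraries, per the labels' protocols. The deposited values are whole-number counts per gene, not scaled by the authors, for 60668 versioned Ensembl identifiers, 42044 of them with a symbol. The submitters' processing notes name GRCh38.p13, Trimmomatic 0.39, STAR and StringTie 2.1.3b. Their roles, the strand setting and whether a read pair counts once are not given in the sources used here. GENCODE 29 (GRCh38) held 58561 of the identifiers and gave positions, exon overlaps, length and GC content. RefSeq (GRCh38.p14) promoters matched 13677 of the genes tested.

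The 6 libraries were fitted alone with edgeR 4.0.16 in R 4.3.3: filterByExpr (minimum count 10, minimum total count 15), TMM factors from all 12 libraries of the table, the quasi-likelihood F test in either direction, and Benjamini-Hochberg adjustment over all genes tested (threshold 0.05). Log2 fold changes are SRSF2-OE over SRSF7-OE, and the SE is their size over the square root of F. Lines were placed against 1xCtrl by a fit of all 12 libraries. Named genes are SRSF2, SRSF3, SRSF7 and MYC, the 12 highest and 12 lowest by the rule given in the text, and up to 4 called members of each list with at least 1 CPM. GPR78 and TLCD4 ranked among the 12 but share exon bases on their strand (2013 and 653 bases), and were left out. A few genes that the rule or the lists hold are not reported here. The members and lists were chosen with earlier results of these data known. CPM is not divided by gene length, so levels are not compared between genes. Detection floors cover counting error only.

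Same-numbered libraries deviated from their group means with correlations of 0.0104, 0.0723 and 0.0156 across genes, so the numbers were not taken as pairs. The procedure was tested on simulated counts of 23148 genes with 200 changed 2-fold. With the spread at its trend, 69.5% of these were called (99.1% of the 109 at 5 CPM or more) and 6.08% of calls were false. With each gene's own spread, 64% and 95.4% were called, 15.2% of calls were false, and 4 genes were called when none had changed. Alternatives used DESeq2 1.42.0, limma 3.58.1 (voom), other scalings and filters, a replicate block, a minimum of 1 on the log2 scale, the removal of GC trends, and leaving out each library. For the genes placed against 1xCtrl, a fit of only the groups compared was added after seeing the data.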

Additional observations from a re-analysis of the deposited data

How the results depend on the processing

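The count of 8022 genes stayed within 1.5 times under every alternative run except a test against a minimum of 2-fold, which called 93 genes, 47 higher and 46 lower in SRSF2-OE. Upper-quartile scaling gave 4997 higher and 3131 lower, since it moves every gene upward. On leaving out 1 library the total ran from 5993, without SRSF2-OE replicate 2, to 8089, the higher genes from 2159 to 2917 and the lower genes from 3806 to 5172. The replicate numbers showed no pairing, and with them as a replicate block 7407 genes were called, 2795 higher and 4612 lower.

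Of 2952 values of 164 named genes under alternatives, 2739 kept direction and side of the threshold, 212 lost the call, 133 of them in the test against 2-fold, and 1 changed sign, SRSF7 at 0.060 with upper-quartile scaling. Of 364 such values of the 28 genes placed against 1xCtrl, 8 lost and 9 gained the call in SRSF2-OE and 24 lost and 14 gained it in SRSF7-OE, where 4 changed sign, none of them a call. LRRC38 lay at -0.083 with the GC trend removed and from -0.0043 to 0.118 on leaving out 1 library, SUSD2 from -0.078 to 0.550 and CDK18 from -0.098 to 0.350. The cause was not tested. List medians turned sign under upper-quartile scaling for hnRNPs, replication, the epithelial-mesenchymal list, the EGFR family, glycolysis, the stress response, ephrins, stem cell markers and ribosomal proteins, and without SRSF2-OE replicate 1 for keratins and S100 genes.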

Other observations

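The genes with the most extreme fitted values lay outside the naming rule. Of 18 genes beyond 6 on the log2 scale in either direction, 13 were called, 14 had a mean below 1 CPM and 11 shared exon bases with a gene of their own strand. In 12 of the 18 every SRSF2-OE library held 0 counts, and in 3 every SRSF7-OE library did. Their fitted values depend on the prior count and are not given, and the genes named here were chosen after their values were seen. Read-through genes, which join exons of neighbours, were among them: LY75-CD302 was called, with 0.00433, 0 and 0 CPM in SRSF2-OE and 2.22, 0.562 and 2.19 CPM in SRSF7-OE, while ARPIN-AP3S2, RAB4B-EGLN2 and TNFSF12-TNFSF13 were not called. CD79B, VPREB3 and LTB, which are known from B cells, held 0 counts in every SRSF2-OE library and between 0.0424 and 0.174 CPM in SRSF7-OE.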
